A study of Mus musculus with 30 samples.

Results

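The genes described here are the tumour necrosis factor (TNF) ligand and receptor superfamilies in mouse lung organoid cultures. Members were taken by symbol: every gene named Tnfrsf or Tnfsf followed by a number, plus Tnf, Lta, Ltb, Ltbr, Fas, Fasl, Cd40, Cd40lg, Cd27 and Cd70, with Ngfr left out. The rule found 42 of the 55487 genes in the count table: 24 receptors, 17 ligands and 1 antisense transcript, Tnfsf13os. No expression value entered the rule.

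TNF superfamily ligands are mostly trimers that are made on the cell surface and can be shed, and they act by clustering their receptors. Receptors with a death domain, such as Tnfrsf1a and Fas, can recruit adaptors that start caspase-dependent death, while the TRAF-binding receptors, such as Tnfrsf1b, Tnfrsf9, Tnfrsf11a and Cd40, feed the NF-κB and MAP kinase pathways. Some members are soluble decoys: Tnfrsf11b encodes osteoprotegerin, a secreted protein that binds the ligand of Tnfrsf11a. In the lung, TNF-α is among the cytokines that epithelial cells and fibroblasts meet during inflammation.

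Epcam+ cells negative for CD45 and CD31 were isolated from the lungs of adult wild-type C57BL/6J mice and grown in Matrigel with CCL206 cells, a mouse lung fibroblast line that had been inactivated with mitomycin C. For 72 hours the cultures received vehicle, the exacerbation cocktail (EC: IL-1β, IL-6, TNFα and IL-8, for which the study's methods give the chemokine KC in mouse cultures), the idiopathic pulmonary fibrosis cocktail (IPFc: TSLP, TNFα, TGF-β and the chemokine CCL2 with the interleukins IL-33, IL-13, IL-8, IL-4 and IL-1β) or TGF-β alone at 2 ng/ml, and were then re-sorted into an epithelial (Epcam+) and a fibroblast (Epcam-) fraction for bulk RNA sequencing. The 30 libraries form 8 groups from cultures of 4 mice, with n = 4 in each group except fibroblast vehicle (n = 3; mouse 2 not analysed here) and epithelial TGF-β (n = 3; mouse 1 not analysed here). Both cocktails contain TNFα, and IPFc and the TGF-β group share TGF-β. The fibroblasts in all cultures were 1 cell line, so the mouse number of a fibroblast library names the mouse whose epithelial cells shared its culture. Library totals ran from 8275413 to 20317181 reads in the epithelial fraction and from 5113828 to 18447405 in the fibroblast fraction.

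Levels are given as counts-per-million (CPM), the reads of a gene scaled to the total of its library, and levels of different genes are compared only after dividing the CPM by the exon length in kilobases (RPKM). Changes are log2 fold changes ± standard error (SE) from edgeR's quasi-likelihood test with the mouse as a block, and a gene was called at an adjusted p below 0.05 over all genes tested. The 3 treatments of a fraction were set against the same vehicle libraries, so their responses are not independent.

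The sequences just before the transcription starts of 3 receptors that recur below are shown first. They were chosen after their changes were seen: in the TGF-β fibroblasts Tnfrsf9 and Fas fell and Tnfrsf12a rose. Each is the 250 bases upstream of a RefSeq start in build GRCm38.p6, 5′ to 3′ on the gene's strand. Capitals mark a match to the AP-1 motif TGANTCA or to the NF-κB consensus, both searched on both strands. Tnfrsf9 has 2 listed starts, and its first lies at chr4:150919905-150920154 (+), its second at chr4:150927749-150927998 (+). Fas lies at chr19:34290409-34290658 (+) and Tnfrsf12a at chr17:23677450-23677699 (-).
Tnfrsf9 start 1: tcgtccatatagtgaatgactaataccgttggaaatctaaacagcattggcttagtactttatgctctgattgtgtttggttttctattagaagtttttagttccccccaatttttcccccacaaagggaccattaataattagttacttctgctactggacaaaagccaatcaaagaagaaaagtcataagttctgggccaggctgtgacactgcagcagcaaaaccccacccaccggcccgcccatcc
Tnfrsf9 start 2: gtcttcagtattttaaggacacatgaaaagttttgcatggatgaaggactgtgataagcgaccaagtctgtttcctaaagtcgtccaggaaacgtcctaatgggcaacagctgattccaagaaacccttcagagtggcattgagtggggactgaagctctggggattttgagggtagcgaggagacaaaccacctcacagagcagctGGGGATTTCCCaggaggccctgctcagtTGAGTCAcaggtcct
Fas: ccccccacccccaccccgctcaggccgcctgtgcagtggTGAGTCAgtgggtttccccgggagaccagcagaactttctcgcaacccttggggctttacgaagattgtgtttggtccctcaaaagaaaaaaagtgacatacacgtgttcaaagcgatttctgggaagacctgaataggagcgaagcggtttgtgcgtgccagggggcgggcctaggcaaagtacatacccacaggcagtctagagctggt
Tnfrsf12a: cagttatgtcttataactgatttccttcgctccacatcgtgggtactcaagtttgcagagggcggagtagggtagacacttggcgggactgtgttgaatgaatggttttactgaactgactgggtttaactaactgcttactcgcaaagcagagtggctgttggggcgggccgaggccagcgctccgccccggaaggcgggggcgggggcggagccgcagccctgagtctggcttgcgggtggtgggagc
The window before the second Tnfrsf9 start held 1 AP-1 match and 2 overlapping NF-κB matches, and that of Fas held 1 AP-1 match. The first Tnfrsf9 window and that of Tnfrsf12a held no match to either. Tnfrsf1b, Tnfrsf11a, Tnfrsf21 and Tnfsf15, which as measured also fell in the TGF-β fibroblasts, had no match in their windows. Nor had Tnfrsf23, which rose. A link between matches and direction was not tested. RefSeq promoters were matched for 31 of the 42 members, with 35 windows between them. An AP-1 match lay in 6 of these windows (17.1%) and in 6.75% of all 32851 promoter windows, and an NF-κB match lay in 4 member windows (11.4%) and in 7.25% of all. A match is a run of letters in the window and was not examined as a binding site. Tnfrsf11b, Cd40, Tnfrsf22, Tnfrsf26, Tnfrsf10b, Tnfsf9, Tnfsf4, Tnfsf12, Cd40lg, Cd70 and Tnfsf13os had no entry.

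The fractions were not pure, and the mixing differed between treatments. For each library the share of RNA of the other fraction was taken as the median CPM ratio to its partner, the other fraction of the same culture, over 18 to 28 marker genes of that other fraction. The partner was itself mixed, so this ratio overstates the share of RNA held, most where the partner was least pure. By this ratio, the fibroblast share of the epithelial libraries was 5.91 ± 2.34% (SD, n = 4) in vehicle, 11.2 ± 4.13% in EC, 11.2 ± 5.07% in IPFc and 28.2 ± 2.83% (n = 3) in TGF-β. The epithelial share of the fibroblast libraries was 22.5 ± 7.92% (n = 3) in vehicle, 44.8 ± 9.78% in EC, 19.3 ± 8.99% in IPFc and 2.38 ± 1.38% in TGF-β. The equal epithelial means of EC and IPFc thus rest on partners of unlike purity. The EC and TGF-β shares of the fibroblast libraries and the TGF-β share of the epithelial libraries did not overlap with vehicle, and each gave an exact two-sided permutation p of 0.0571, the smallest that 4 against 3 libraries allow. The epithelial EC and IPFc shares overlapped with vehicle (exact permutation p = 0.0571 and p = 0.143, where 0.0286 is the smallest possible). These tests did not pair libraries by mouse, and in every mouse the epithelial EC and IPFc shares were above the vehicle share. The share of a library times the CPM of its partner is called the carry-over value of a gene. It is an upper estimate of the level that RNA of the other fraction alone would give. Since the partner also held RNA of the library's own fraction, the value and its subtraction include some of that RNA. How much was not tested. The summed level of 25 immune genes was at most 25.6 CPM and that of 14 endothelial genes at most 35.9 CPM in every library, with 4 to 13 of the immune genes and 2 to 5 of the endothelial genes at 0 throughout a group. As bulk data, these values cannot tell fewer cells of a type from less RNA per cell.

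**Figure D1:**
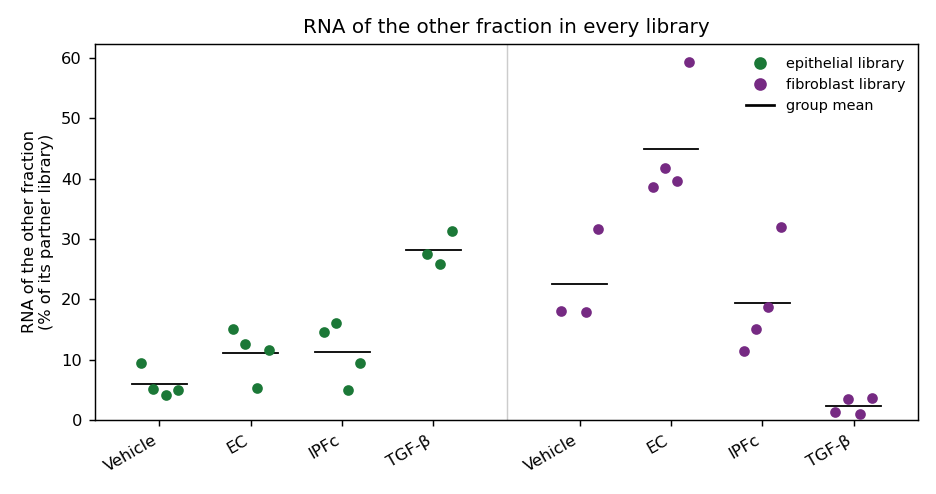
Share of RNA of the other fraction (% of the partner library, itself mixed, vertical axis) in each library, by treatment, for the epithelial (green, left) and fibroblast (purple, right) libraries, with the group mean as a bar. The share of the TGF-β epithelial libraries lay between 25.8 and 31.3%, above every vehicle library, while the fibroblast libraries ran from 38.6 to 59.4% in EC and from 1.03 to 3.71% in TGF-β.

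All 42 members had at least 1 read, but only part of the superfamily was expressed at a level that could be tested. A mean raw count of 1 was reached by 30 members in each fraction, 28 of them the same, and by 31 members over all libraries. The 10 members tested in neither fraction were the ligands Fasl, Cd40lg, Cd70, Tnfsf4, Tnfsf8 and Tnfsf11 and the receptors Cd27, Tnfrsf13b, Tnfrsf13c and Tnfrsf17, which had between 1 and 9 reads in all libraries together and at most 0.184 CPM in a library.

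Per length, the epithelial vehicle libraries were led by Tnfrsf12a, the receptor for TWEAK, with a mean of 138 RPKM, followed by the lymphotoxin β receptor Ltbr with 42.4, the death-domain receptor Tnfrsf21 (DR6) with 39.6, the TNF receptor Tnfrsf1a with 27.6 and the second TNF receptor Tnfrsf1b with 16.7 RPKM. The fibroblast vehicle libraries were led by Tnfrsf9, which encodes the costimulatory receptor 4-1BB, with 78.4 RPKM, followed by Tnfrsf12a with 68.9, Tnfrsf1a with 68.1, Ltbr with 62.7 and the 4-1BB ligand Tnfsf9 with 20.4 RPKM. Receptors thus filled the ranks listed for the epithelial libraries and those above Tnfsf9 in the fibroblast libraries. Tnfsf9 was the ligand with the highest level per length in each fraction, at 8.39 RPKM in the epithelial vehicle libraries.

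In vehicle cultures, 10 members were higher and 10 lower in the epithelial than in the fibroblast libraries, out of 31 tested, against 29.1% higher and 29.4% lower among all 18364 genes tested. Tnfrsf19, a TRAF-binding orphan receptor, had 71 reads in the 4 epithelial and 1 read in the 3 fibroblast vehicle libraries, a 48.9-fold ratio scaled to library totals with a 95% counting interval from 8.50 to 1959. Ltb, the membrane partner of lymphotoxin α, had 46 against 2 reads (15.8-fold, interval 4.14 to 135). Tnfrsf11a (RANK), the receptor whose ligand osteoprotegerin binds, lay at 6.85 to 11.7 CPM in the epithelial and 0.472 to 2.05 CPM in the fibroblast libraries, a log2 difference of 3.29 ± 0.28 (adjusted p = 1.6e-10). Tnfrsf21 lay at 157 to 187 CPM against 23.5 to 57.3 CPM, a log2 difference of 2.53 ± 0.19 (adjusted p = 1.0e-11). None of these 4 overlapped between the fractions. The fibroblast levels of Tnfrsf19 and Ltb lay below their carry-over values (0.158 to 0.346 and 0.0988 to 0.184 CPM) in all 3 libraries, and those of Tnfrsf11a (carry-over value 1.81 to 2.17 CPM) and Tnfrsf21 (32.9 to 49.8 CPM) were of the size of their carry-over values.

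Members higher in the fibroblast vehicle libraries were led by Tnfrsf9, at 204 to 224 CPM against 9.55 to 16.6 CPM in the epithelial libraries (log2 difference -3.99 ± 0.23, adjusted p = 1.3e-13), and by Tnfrsf11b, at 23.2 to 40.8 CPM against 1.67 to 2.18 CPM (-3.97 ± 0.17, adjusted p = 2.6e-15). Tnfsf12, which encodes TWEAK, lay at 9.67 to 12.4 against 0.295 to 1.57 CPM (-3.51 ± 0.32, adjusted p = 3.8e-10). Tnfrsf14 (HVEM) lay at 5.90 to 6.22 against 0.564 to 1.20 CPM (-2.50 ± 0.32, adjusted p = 1.6e-07). The groups of these 4 genes were fully apart. In the epithelial libraries the mean carry-over value was 0.671 CPM for Tnfsf12, of a mean level of 0.969 CPM, and 0.356 CPM for Tnfrsf14, of 0.990 CPM. Fas, Tnfrsf22, Tnfrsf1a, Tnfsf9, Tnfrsf23 and Ltbr were also higher in the fibroblasts, and Tnfrsf18, Tnfrsf4, Tnf, Tnfsf15, Tnfrsf12a and Tnfrsf1b in the epithelial cells. TWEAK and its receptor thus had their higher vehicle levels in different fractions.

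**Figure D2:**
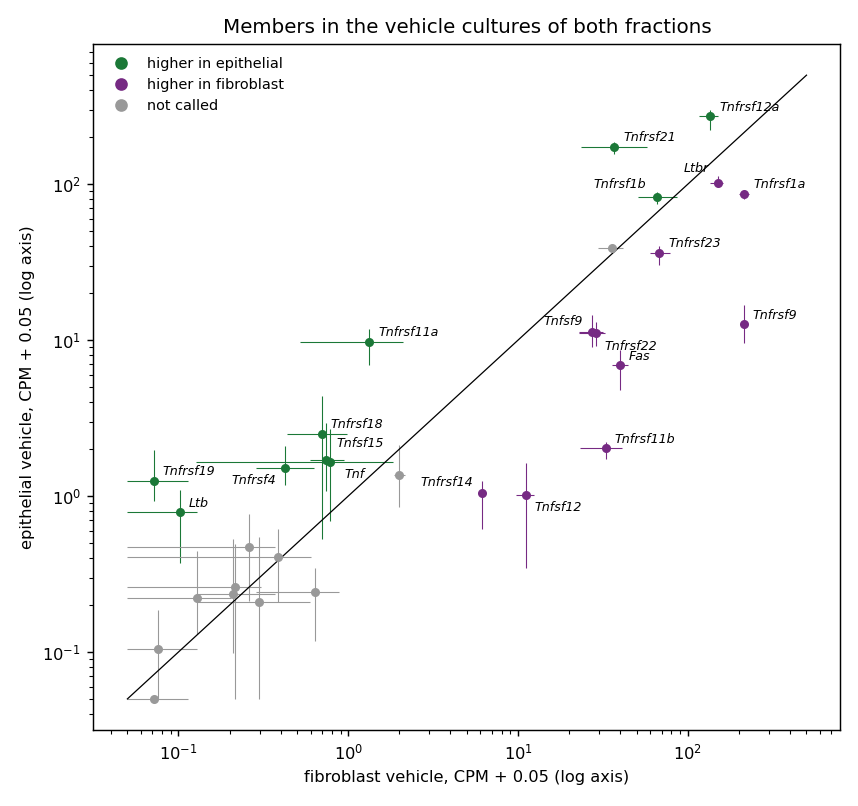
Mean CPM + 0.05 of each tested member in the epithelial (vertical) and fibroblast (horizontal) vehicle libraries on log axes, with bars from the lowest to the highest library and the line of equal levels. Tnfrsf9, Tnfrsf11b, Tnfsf12 and Tnfrsf14 lie farthest below the line, and Tnfrsf19, Ltb, Tnfrsf11a and Tnfrsf21 farthest above it.

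In the epithelial libraries, EC raised 6 of the 30 tested members and lowered none (1.96% of all genes tested rose and 2.44% fell), IPFc raised 2 and lowered none (2.57% and 1.53%), and TGF-β raised 6 and lowered 7 (21.0% and 20.1%). Among fibroblast libraries, EC raised 4 and lowered 1 (4.28% and 2.84%), IPFc changed none (0.305% and 0.144%), and TGF-β raised 4 and lowered 6 (6.39% and 12.8%). For the fibroblast IPFc comparison, edgeR gave 5 members with an unadjusted p below 0.05, beside 1174 of all 18048 genes. DESeq2 called 1 member there, beside 118 genes higher and 65 lower of all 18048. The median log2 fold change over the tested members was 0.34 in EC epithelial libraries against 0.0031 over all genes, and 0.25 against -0.02 in EC fibroblast libraries. It was 0.09 and 0.24 under IPFc and -0.06 and 0.14 under TGF-β, in the epithelial and fibroblast libraries, where all genes lay between -0.02 and 0.03.

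**Figure D3:**
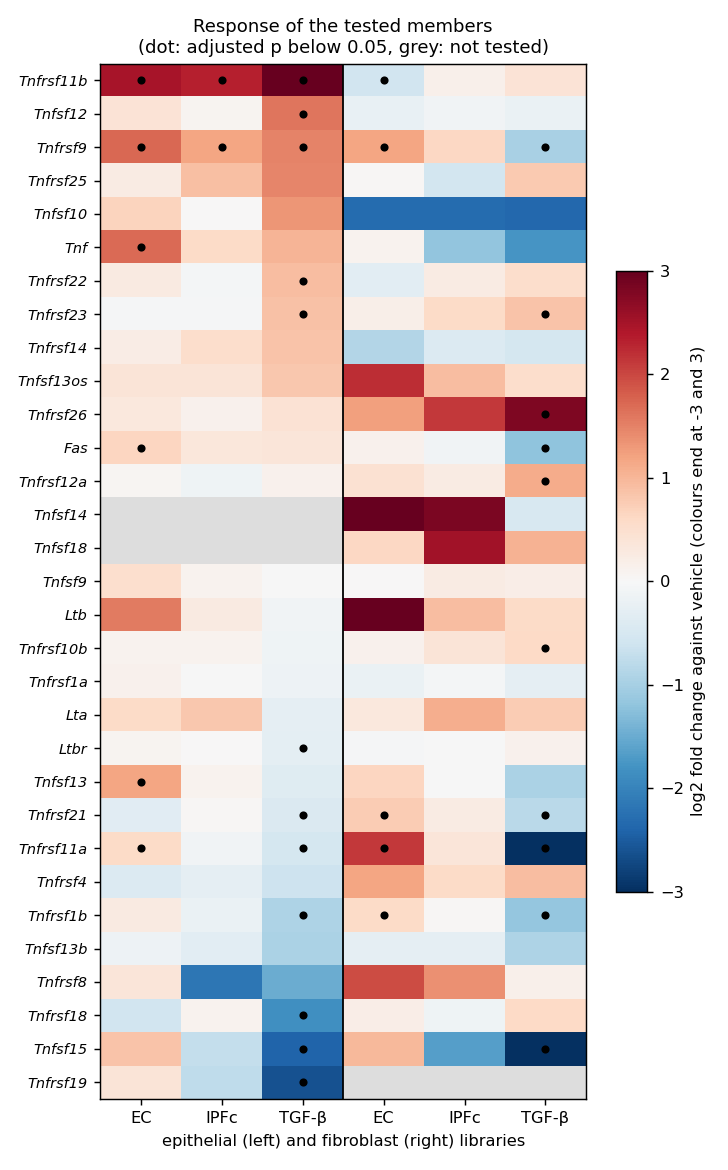
Log2 fold change against vehicle (colour scale, ending at -3 and 3) for each tested member (rows) under EC, IPFc and TGF-β in the epithelial (left) and fibroblast (right) libraries; a dot marks an adjusted p below 0.05 and grey a member not tested in that fraction. Cd40, with no read in the vehicle libraries of its fraction, is left out. Dots run across all 3 epithelial columns only for Tnfrsf11b and Tnfrsf9, and most blue cells with a dot stand in the TGF-β columns.

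Tnfrsf11b (ENSMUSG00000063727; chr15:54114015-54142075, minus strand, GRCm39) rose in the epithelial libraries under every treatment. Vehicle libraries of mice 1 to 4 had 2.18, 1.92, 1.67 and 2.10 CPM, EC libraries 9.90, 9.53, 12.5 and 10.5 CPM, and IPFc libraries 9.26, 9.21, 11.8 and 9.16 CPM. The TGF-β libraries of mice 2 to 4 had 55.4, 73.1 and 69.2 CPM. Every treated library was above every vehicle library, and every TGF-β library above every cocktail library. The log2 fold change was 2.48 ± 0.16 in EC (adjusted p = 1.3e-09), 2.34 ± 0.16 in IPFc (adjusted p = 2.9e-09) and 4.96 ± 0.16 in TGF-β (adjusted p = 1.3e-14). IPFc libraries, which also received TGF-β, were lower than TGF-β libraries by 2.61 ± 0.13 on the log2 scale (adjusted p = 8.0e-12).

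The osteoprotegerin transcript was also present in the fibroblasts, so its epithelial level was set beside the carry-over value. In the vehicle libraries the carry-over value was 1.68 to 2.17 CPM, about as high as the measured level of Tnfrsf11b. It was 1.55 to 2.86 CPM in EC, 1.82 to 6.13 CPM in IPFc and 10.4 to 12.0 CPM in TGF-β, below the measured level in all 11 treated libraries. The mean measured level was 4.83 times the mean carry-over value in EC, 2.47 times in IPFc and 5.84 times in TGF-β, against 1.08 times in vehicle. With the carry-over value subtracted from every library the 3 calls were kept, while their size could no longer be given, since the vehicle level was then near 0.

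Fibroblast Tnfrsf11b had 23.2, 40.8 and 34.5 CPM in vehicle (mice 1, 3 and 4) and 11.7, 22.7, 28.8 and 22.4 CPM in EC. It was lower in 3 of 3 mice, with overlap between the groups (log2 fold change -0.58 ± 0.17, adjusted p = 0.046). The call was lost without mouse 2, 3 or 4 (log2 fold change -0.56 to -0.60, adjusted p 0.14 to 0.26) and with the other fraction subtracted (-0.50 ± 0.26, adjusted p = 0.68), beside a mean epithelial share of 22.5% in vehicle and 44.8% in EC. IPFc libraries had 30.1 to 38.4 CPM and TGF-β libraries 36.5 to 43.8 CPM, with log2 fold changes of 0.16 ± 0.16 (adjusted p = 1) and 0.40 ± 0.17 (adjusted p = 0.11). The fibroblasts therefore held the higher Tnfrsf11b level in vehicle, and also in EC (epithelial minus fibroblast, -0.93 ± 0.14, adjusted p = 3.4e-06) and IPFc (-1.78 ± 0.14, adjusted p = 2.4e-11), whereas the epithelial libraries held the higher level in TGF-β (0.60 ± 0.14, adjusted p = 0.00087). Of the 31 members, 17, 20 and 17 differed between the fractions in EC, IPFc and TGF-β, against 52.7%, 61.2% and 50.2% of all genes.

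Tnfrsf9 (ENSMUSG00000028965; chr4:150999019-151030559, plus strand, GRCm39) was called in 5 of the 6 comparisons with vehicle. In the fibroblast libraries, where its level was highest, vehicle gave 224, 212 and 204 CPM (mice 1, 3 and 4), EC 685, 446, 405 and 346 CPM, IPFc 347, 347, 297 and 292 CPM, and TGF-β 87.1, 95.3, 108 and 104 CPM. The 4 groups stood in the order TGF-β, vehicle, IPFc and EC by mean, with overlap only between EC and IPFc. The log2 fold change was 1.19 ± 0.19 in EC (adjusted p = 0.0013) and -0.98 ± 0.18 in TGF-β (adjusted p = 0.00068). In IPFc it was 0.62 ± 0.18 with an adjusted p of 0.28, although all 3 pairs were higher and the groups did not overlap; without mouse 1 the call was made (0.58 ± 0.12, adjusted p = 0.021). EC was above IPFc by 0.57 ± 0.16 (adjusted p = 0.038). Carry-over from the epithelial fraction was at most 30.3 CPM in any fibroblast library, and with it subtracted the EC and TGF-β calls held (1.59 ± 0.20, adjusted p = 0.012, and -1.33 in TGF-β).

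The epithelial libraries followed with a smaller Tnfrsf9 level: 16.6, 11.7, 9.55 and 12.4 CPM in the vehicle libraries, 43.6, 57.2, 19.2 and 51.1 CPM in EC, 34.5, 42.6, 15.9 and 26.1 CPM in IPFc, and 33.8, 32.1 and 40.6 CPM in TGF-β. All pairs were higher under all 3 treatments, with overlap only in IPFc. The log2 fold change was 1.73 ± 0.19 in EC (adjusted p = 5.8e-06), 1.19 ± 0.19 in IPFc (adjusted p = 0.00073) and 1.50 ± 0.21 in TGF-β (adjusted p = 7.6e-06). These levels were of the size of their carry-over values, which in some libraries exceeded them. The carry-over value was 20.9, 10.9, 8.80 and 10.2 CPM in the vehicle libraries, 104, 56.1, 21.8 and 40.2 CPM in EC, 50.3, 55.8, 14.5 and 27.7 CPM in IPFc, and 26.2, 27.9 and 32.6 CPM in TGF-β. The ratio of the mean measured to the mean carry-over level was 0.989, 0.772, 0.802 and 1.23 in the 4 groups. With the carry-over value subtracted no epithelial Tnfrsf9 call was left (EC 1.34 ± 1.37, adjusted p = 0.84; IPFc -0.94 ± 1.53, adjusted p = 0.99; TGF-β 2.96 ± 1.34, adjusted p = 0.13).

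**Figure D4:**
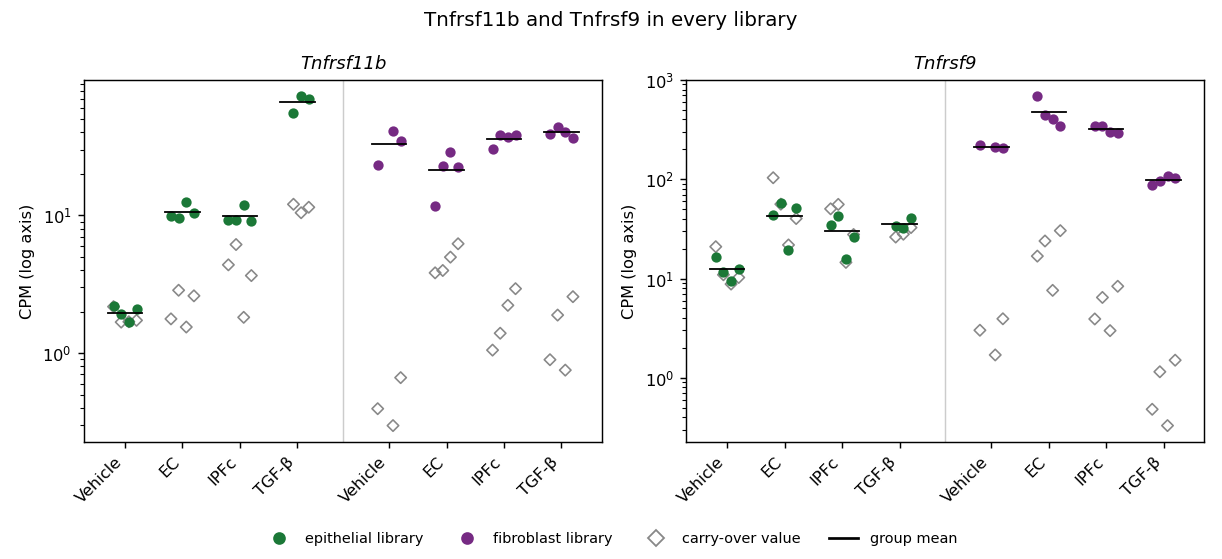
CPM (log axis) of Tnfrsf11b and Tnfrsf9 in each library by treatment, epithelial in green and fibroblast in purple, with the group mean as a bar and the carry-over value as an open diamond. Treated epithelial libraries stand above their diamonds for Tnfrsf11b, while for Tnfrsf9 the diamonds lie among the measured points.

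Tnf, which encodes TNF-α, was read mainly in the epithelial libraries: 0.819, 0.641, 2.66 and 2.34 CPM in the vehicle libraries, 6.65, 6.40, 3.09 and 3.63 CPM in EC, 2.15, 1.75, 3.62 and 2.10 CPM in IPFc, and 2.82, 3.32 and 4.59 CPM in TGF-β. EC libraries were all above the vehicle libraries, and the carry-over value was at most 0.120 CPM in any epithelial library. The log2 fold change was 1.70 ± 0.39 in EC (adjusted p = 0.012), 0.57 ± 0.40 in IPFc (adjusted p = 0.64) and 1.02 ± 0.43 in TGF-β (adjusted p = 0.062). The EC call rested on mice 1 and 2, since it was lost without mouse 1 (1.31 ± 0.43, adjusted p = 0.15) or mouse 2 (1.26 ± 0.42, adjusted p = 0.14), and it was not made with the other fraction subtracted (1.84 ± 0.47, adjusted p = 0.069). Tnf was also called in TGF-β without mouse 3 (1.46 ± 0.47, adjusted p = 0.024) and with the other fraction subtracted (1.43 ± 0.50, adjusted p = 0.046). Fibroblast libraries had at most 1.79 CPM of Tnf and no call.

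The 2 TNF receptors differed from each other. Tnfrsf1a, the death-domain receptor, had group means between 83.1 and 92.5 CPM in the epithelial and between 166 and 215 CPM in the fibroblast libraries, and passed the test in none of the 6 comparisons with vehicle (log2 fold changes from -0.27 to 0.12, adjusted p 0.16 to 1). In the TGF-β epithelial libraries, however, its carry-over value was 43.4, 42.1 and 60.9 CPM of a measured 83.4, 83.5 and 82.4 CPM, against 8.34 to 21.4 CPM of 80.6 to 91.5 CPM in vehicle. With the carry-over value subtracted it fell by 0.89 ± 0.13 on the log2 scale in the TGF-β epithelial libraries (adjusted p = 0.00018) and by 0.51 ± 0.13 in the TGF-β fibroblast libraries (adjusted p = 0.045).

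Tnfrsf1b, the TRAF-binding TNF receptor, fell under TGF-β in both fractions. In the epithelial libraries it had 89.1, 84.8, 82.8 and 74.9 CPM in vehicle and 52.1, 47.6 and 36.3 CPM in TGF-β, with no overlap (log2 fold change -0.94 ± 0.10, adjusted p = 2.5e-07). In the fibroblast libraries it had 58.9, 50.7 and 86.5 CPM in vehicle and 23.1, 24.1, 30.1 and 26.5 CPM in TGF-β, again apart (-1.16 ± 0.15, adjusted p = 2.2e-05). Both falls held with the other fraction subtracted (-0.76 and -1.11). EC gave 107, 101, 101 and 83.9 CPM in the epithelial (0.28 ± 0.09, adjusted p = 0.093) and 85.1, 87.6, 94.5 and 91.7 CPM in the fibroblast libraries. The fibroblast EC difference was called (0.57 ± 0.15, adjusted p = 0.033), beside a carry-over value of 40.2 to 49.8 CPM in EC and 14.7 to 23.7 CPM in vehicle. It was not called without mouse 2 (0.58 ± 0.18, adjusted p = 0.081) or mouse 3 (0.42 ± 0.16, adjusted p = 0.27), nor after subtraction (0.54 ± 0.21, adjusted p = 0.55).

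Besides Tnfrsf11b, Tnfrsf9 and Tnf, EC raised Tnfsf13, Fas and Tnfrsf11a in the epithelial libraries. Tnfsf13, which encodes the B-cell factor APRIL, had 0.955, 2.08, 1.38 and 0.806 CPM in vehicle and 3.25, 3.27, 2.63 and 2.42 CPM in EC (1.19 ± 0.32, adjusted p = 0.037). Its EC libraries all lay above vehicle, and the gene overlaps the antisense Tnfsf13os and neighbours Tnfsf12 on chromosome 11, so its reads are uncertain where strand was not used in counting. Fas, the death receptor for Fasl, had 8.60, 6.73, 4.73 and 7.42 CPM in vehicle and 8.93, 11.3, 8.07 and 14.0 CPM in EC (0.65 ± 0.18, adjusted p = 0.040), with overlap. Tnfrsf11a had 10.2, 11.7, 10.1 and 6.85 CPM in vehicle and 15.4, 19.2, 15.1 and 7.87 CPM in EC (0.57 ± 0.14, adjusted p = 0.017), also with overlap. Each of the 3 was higher in 4 of 4 mice. The Tnfsf13 call was lost without any 1 mouse (1.01 to 1.42, adjusted p 0.058 to 0.27), that of Fas without mouse 2, 3 or 4 (0.52 to 0.62, adjusted p 0.16 to 0.24) and that of Tnfrsf11a without mouse 1, 2 or 3 (0.52 to 0.56, adjusted p 0.10 to 0.16). For Fas the carry-over value was 2.21 to 8.09 CPM in EC against 1.48 to 3.68 CPM in vehicle, and its change after subtraction was 0.14 ± 0.46 (adjusted p = 0.97). The carry-over values of Tnfsf13 and Tnfrsf11a were at most 0.502 and 0.851 CPM in EC, and neither gene was called after subtraction (1.24 ± 0.38, adjusted p = 0.15, and 0.59 ± 0.15, adjusted p = 0.076).

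The TGF-β epithelial libraries had the most calls among the epithelial comparisons. Cd40, a costimulatory receptor best known from B cells and antigen-presenting cells, had 11, 17 and 4 reads in the 3 TGF-β libraries and none in the 4 vehicle libraries, which makes it at least 16.2-fold higher against a floor of 3 reads over the vehicle group (adjusted p = 0.003; DESeq2 adjusted p = 0.31). Its carry-over value was 0 in these TGF-β libraries. Tnfsf12 had 1.57, 0.961, 0.295 and 1.05 CPM in vehicle and 2.23, 1.86 and 3.14 CPM in TGF-β (1.62 ± 0.47, adjusted p = 0.0079), beside carry-over values of 1.87, 2.53 and 3.06 CPM, and after subtraction its change was -0.63 ± 1.59 (adjusted p = 0.80). Without mouse 3 the Tnfsf12 call was lost (1.23 ± 0.55, adjusted p = 0.097). Tnfrsf22 and Tnfrsf23, neighbouring decoy-type receptors on chromosome 7, rose by 0.92 ± 0.18 (adjusted p = 0.00029) and 0.89 ± 0.13 (adjusted p = 1.5e-05). Their carry-over values were 9.17 to 13.8 of 17.1 to 25.9 CPM for Tnfrsf22 and 27.0 to 39.9 of 62.7 to 76.2 CPM for Tnfrsf23, and after subtraction neither was called (0.43 ± 0.26, adjusted p = 0.24, and 0.49 ± 0.19, adjusted p = 0.073). As neighbouring paralogs their counts are uncertain.

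Members that fell in the TGF-β epithelial libraries included receptors and a ligand of low level. Tnfrsf19 fell from 1.91, 1.04, 0.886 and 0.968 CPM to 0.372, 0 and 0.242 CPM (-2.60 ± 0.72, adjusted p = 0.0052), and Tnfsf15 (TL1A), a ligand of Tnfrsf25, from 1.02, 1.68, 1.03 and 2.90 to 0.584, 0.0810 and 0.363 CPM (-2.39 ± 0.51, adjusted p = 0.00059). Neither overlapped with vehicle. Tnfrsf18 (GITR) had 1.91, 4.33, 3.15 and 0.484 CPM in vehicle and 1.33, 0.243 and 0.604 CPM in TGF-β, with overlap and with 1 of 3 pairs higher (-1.85 ± 0.49, adjusted p = 0.0040), and was not called without mouse 3 (-1.19 ± 0.54, adjusted p = 0.10). Tnfrsf11a, Tnfrsf21 and Ltbr also fell, by 0.53 ± 0.16, 0.43 ± 0.11 and 0.29 ± 0.09 on the log2 scale. With the other fraction subtracted, 5 of the 13 calls of this comparison were kept (Tnfrsf11b, Cd40, Tnfrsf1b, Tnfsf15 at -2.07 and Ltbr) and 8 were lost (Tnfrsf9, Tnfsf12, Tnfrsf22, Tnfrsf23, Tnfrsf11a, Tnfrsf21, Tnfrsf18 and Tnfrsf19). For Tnfrsf19 the change was then -2.28 ± 0.82 (adjusted p = 0.050) and for Tnfrsf18 -1.88 ± 0.77 (adjusted p = 0.086), while Tnfrsf11a and Tnfrsf21 were at -0.14 and -0.08. Tnf, Tnfrsf1a and Tnfsf9 (-1.11 ± 0.30, adjusted p = 0.013) were called after subtraction only. Over all genes, 1963 rose and 2751 fell of 17596 tested after subtraction, against 3783 and 3617 of 18024 as measured.

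In the EC fibroblast libraries, beside Tnfrsf9, Tnfrsf1b and Tnfrsf11b, the calls were Tnfrsf11a and Tnfrsf21. Tnfrsf11a had 0.472, 1.32 and 2.05 CPM in vehicle and 3.32, 2.73, 5.84 and 7.32 CPM in EC, with no overlap (2.11 ± 0.43, adjusted p = 0.0067). Its carry-over value was 1.85, 1.81 and 2.17 CPM in vehicle and 5.96, 8.01, 5.97 and 4.67 CPM in EC, above the measured level in 6 of these 7 libraries. Tnfrsf21 had 23.5, 29.6 and 57.3 CPM in vehicle and 27.4, 46.0, 62.2 and 87.3 CPM in EC, with overlap (0.75 ± 0.21, adjusted p = 0.041), beside carry-over values of 32.9 to 49.8 and 55.1 to 63.5 CPM. In EC, both were highest in mouse 4, which had the highest epithelial share (59.4%) but the lowest Tnfrsf11a carry-over value. Tnfrsf11a was lowest in mouse 2, where its carry-over value was highest. The part of the epithelial share in these changes was not tested. Tnfrsf11a was not called without mouse 3 (2.09 ± 0.51, adjusted p = 0.076) or 4 (2.32 ± 0.67, adjusted p = 0.12), and Tnfrsf21 was not called without mouse 2, 3 or 4 (0.60 to 0.85, adjusted p 0.059 to 0.36). With the carry-over value subtracted, Tnfrsf9 was the only member called in this comparison. Over all genes, 28 rose and 8 fell of 17391 tested after subtraction, against 772 and 512 of 18048 as measured. Calls were thus fewer over all genes as well. The common biological coefficient of variation, the spread in the fit beyond counting noise, also rose with subtraction. It went from 16.9% to 47.1% in the fibroblast fit and from 12.7% to 19.8% in the epithelial fit. A call lost after subtraction can therefore go with a wider spread, and the parts of spread and carry-over were not tested.

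The TGF-β fibroblast libraries, in which the epithelial share was lowest, showed calls in both directions. Tnfrsf12a rose from 139, 116 and 151 CPM to 234, 235, 278 and 289 CPM (1.12 ± 0.14, adjusted p = 1.0e-05), and Fas fell from 39.3, 35.7 and 44.5 CPM to 17.1, 20.9, 14.8 and 12.8 CPM (-1.22 ± 0.17, adjusted p = 5.1e-05). Neither overlapped with vehicle. The carry-over value of Tnfrsf12a was 50.8 to 70.4 CPM in vehicle and 3.15 to 11.4 CPM in TGF-β, so it moved against the rise, and that of Fas was at most 2.35 CPM in both groups. After subtraction both were called, with 1.63 for Tnfrsf12a and -1.52 for Fas. Tnfrsf9, Tnfrsf1b, Fas and Tnfrsf12a were the members called both as measured and after subtraction, and Tnfrsf1a was called after subtraction only. Over all genes, 241 rose and 600 fell of 17391 tested after subtraction, against 1154 and 2303 of 18048 as measured.

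Tnfrsf23 rose from 59.8, 78.3 and 65.7 CPM to 110, 117, 104 and 127 CPM in the same comparison (0.85 ± 0.14, adjusted p = 0.00022), and had an adjusted p of 0.052 after subtraction (0.67 ± 0.17). Tnfrsf10b, the mouse TRAIL receptor, rose by 0.61 ± 0.13 (adjusted p = 0.0023), with 0.63 ± 0.18 and no call after subtraction (adjusted p = 0.085). Tnfrsf26 had 3, 0 and 4 reads in vehicle and 16, 18, 20 and 11 reads in TGF-β (2.81 ± 0.92, adjusted p = 0.037), and the call was lost without any 1 mouse (2.09 to 3.64, adjusted p 0.050 to 0.21) and after subtraction (adjusted p = 0.32). Tnfsf15 had 8, 7 and 14 reads in vehicle and 1 read in the 4 TGF-β libraries, 42.1-fold lower when scaled to library totals, with a 95% counting interval from 6.98 to 1719, and was not called without mouse 4 (adjusted p = 0.055) or after subtraction (adjusted p = 0.46). Tnfrsf11a fell by 3.08 ± 0.64 (adjusted p = 0.0015) and Tnfrsf21 by 0.81 ± 0.21 (adjusted p = 0.012) on the log2 scale. The vehicle level of Tnfrsf21 was of the size of its carry-over value. After subtraction its change was 6.54 ± 2.48, in the opposite direction and with no call (adjusted p = 0.20). Tnfrsf11a was again at its carry-over value in both groups, was not called without mouse 4 (-2.57 ± 0.92, adjusted p = 0.089), and its change after subtraction was 0.37 with no call.

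**Figure D5:**
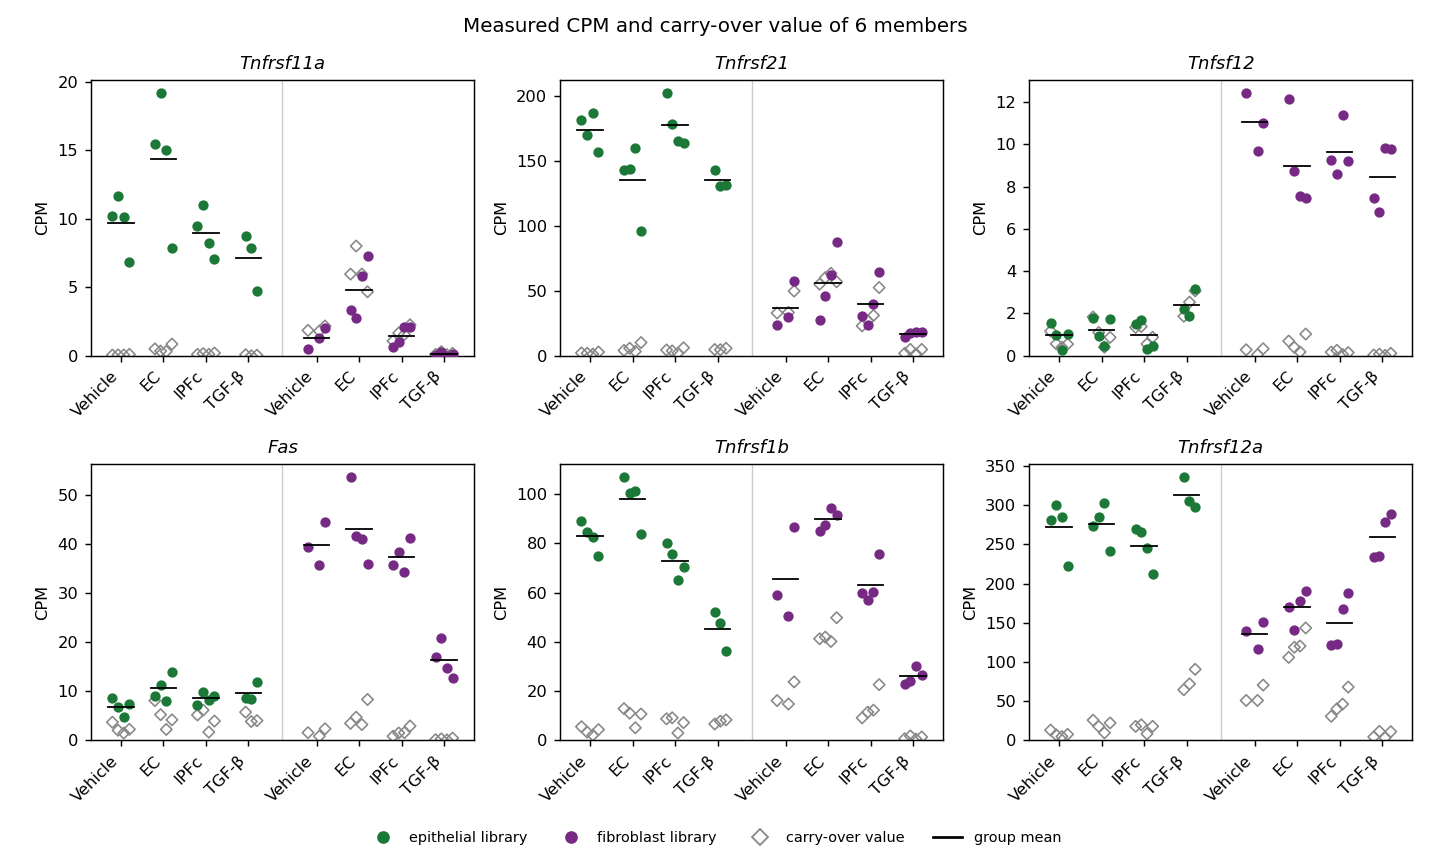
CPM of 6 members in each library by treatment, epithelial in green and fibroblast in purple, with group means as bars and carry-over values as open diamonds. Fibroblast Tnfrsf11a and Tnfrsf21 and epithelial Tnfsf12 lie among their diamonds, except Tnfrsf21 under TGF-β, while Fas, Tnfrsf1b and Tnfrsf12a lie clear of them in the TGF-β fibroblasts.

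Over the 6 comparisons with vehicle, 19 of the 32 members tested in either fraction were called at least once, 15 receptors and 4 ligands (Tnf, Tnfsf12, Tnfsf13 and Tnfsf15), where 46.5% of all 19254 genes tested were called at least once. The 13 members without a call in edgeR's test as measured were 5 receptors (Tnfrsf1a, Tnfrsf4, Tnfrsf8, Tnfrsf14 and Tnfrsf25), 7 ligands (Lta, Ltb, Tnfsf9, Tnfsf10, Tnfsf13b, Tnfsf14 and Tnfsf18) and Tnfsf13os. Of these 13, 4 were called under at least 1 alternative, among them Tnfrsf1a after subtraction, Ltb and Tnfsf9 in epithelial EC by DESeq2 (adjusted p = 0.018 and 0.040) and Tnfrsf14 in fibroblast EC by DESeq2 (adjusted p = 0.021). Ltb came nearest among the ligands, with 0.546, 1.04, 1.03 and 0.323 CPM in epithelial vehicle and 3.05, 2.98, 2.06 and 0.692 CPM in EC (1.56 ± 0.46, adjusted p = 0.059). Fibroblast Tnfrsf14 had 5.90 to 6.22 CPM in vehicle and 2.60 to 3.72 CPM in EC, without overlap (-0.88 ± 0.26, adjusted p = 0.051). Tnfsf9, the ligand of Tnfrsf9, had log2 fold changes between -0.01 and 0.50 in the 6 comparisons, with adjusted p values from 0.070 to 0.98.

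The difference between the fractions' responses was tested in 1 fit of all libraries, in which the 2 fractions of a culture were not paired. For EC, 3 of 31 members responded differently (4.59% of all genes): Tnfrsf11b, with an epithelial minus fibroblast response of 3.04 ± 0.23 (adjusted p = 9.7e-09), Tnfrsf21 (-1.10 ± 0.24, adjusted p = 0.0063) and Tnfrsf11a (-1.55 ± 0.35, adjusted p = 0.0094). Leaving out 1 mouse ended the call of Tnfrsf21 (mouse 3, -0.98 ± 0.30, adjusted p = 0.13) and of Tnfrsf11a (mouse 1, 3 or 4, adjusted p 0.053 to 0.085). Both of these had fibroblast levels at or below their carry-over values on average in vehicle and EC (Tnfrsf21 36.8 of 38.7 and 55.7 of 58.9 CPM, Tnfrsf11a 1.28 of 1.94 and 4.80 of 6.15 CPM), with a mean epithelial share of 22.5% and 44.8%, and the part of the shares was not tested. For IPFc, Tnfrsf11b was the only one (2.19 ± 0.22, adjusted p = 4.7e-06; 0.229% of all genes).

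For TGF-β, 11 members responded differently, against 27.5% of all genes, and the median difference over all genes was itself 0.21. The response was higher in the epithelial libraries for Tnfrsf11b (4.57 ± 0.23, adjusted p = 4.4e-13), Tnfrsf9 (2.51 ± 0.31, adjusted p = 6.1e-07), Fas (1.60 ± 0.26, adjusted p = 3.6e-05), Tnfrsf11a, Tnfsf12, Tnf, Tnfrsf14 and Cd40, and lower for Tnfrsf12a (-0.98 ± 0.16, adjusted p = 3.9e-05), Tnfrsf10b and Tnfrsf18. Leaving out 1 mouse ended the calls of Tnf (mouse 4, adjusted p = 0.35), Tnfrsf14 (mouse 2 or 4, adjusted p 0.093 and 0.11), Tnfrsf18 (mouse 2 or 3, adjusted p 0.12 and 0.31) and Cd40 (mouse 4, adjusted p = 1). In TGF-β the fibroblast share of the epithelial libraries was higher and the epithelial share of the fibroblast libraries lower than in vehicle, and the part of the shares in these differences was not tested. For Tnfrsf1a and Tnfrsf1b no difference in response passed the test under any treatment.

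Between the treatments, 4 members differed between EC and IPFc in the epithelial libraries (4.17% of all genes). EC was higher for Tnfsf15 (1.59 ± 0.38, adjusted p = 0.015), Tnfrsf11a (0.68 ± 0.14, adjusted p = 0.0040) and Tnfrsf1b (0.46 ± 0.09, adjusted p = 0.0024), and lower for Tnfrsf21 (-0.36 ± 0.10, adjusted p = 0.036). Between EC and IPFc fibroblast libraries 7 members differed (10.4% of all genes): EC was higher for Tnfsf15, Tnfrsf11a, Tnfrsf9 and Tnfrsf1b and lower for Tnfrsf11b (-0.74 ± 0.15, adjusted p = 0.0052), Tnfrsf22 and Tnfrsf23. These counts were unsteady: leaving out 1 mouse gave 1 to 3 epithelial calls (1 without mouse 1 or 2) and 1 to 6 fibroblast calls (2 without mouse 2 or 3, 1 without mouse 4), and after subtraction 1 and 0 members were called. Calls over all genes dropped too. Epithelial calls were 185 higher and 266 lower without mouse 1, and 213 and 282 without mouse 2. Fibroblast calls were 629 and 271 without mouse 2, 604 and 289 without mouse 3, and 472 and 193 without mouse 4. Over all genes, subtraction left 178 higher and 241 lower in the epithelial libraries, against 318 and 433 as measured. In the fibroblast libraries it left 12 and 9, against 1134 and 751.

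Although IPFc contains TGF-β, 13 members differed between IPFc and TGF-β in the epithelial libraries (37.2% of all genes) and 6 in the fibroblast libraries (17.4%). In the epithelial libraries IPFc was lower for Tnfrsf11b, Cd40, Tnfsf12, Tnfrsf22, Tnfrsf23 and Tnfrsf12a and higher for Tnfrsf18, Tnfrsf19, Tnfsf15, Tnfrsf1b (0.75 ± 0.10, adjusted p = 6.2e-06), Tnfrsf21, Tnfrsf11a and Ltbr. Without mouse 3 the count was 5, beside 2438 genes higher and 2438 lower over all genes. Fibroblast IPFc libraries were higher for Tnfrsf11a, Tnfrsf9 (1.60 ± 0.17, adjusted p = 1.7e-06), Tnfrsf1b (1.19 ± 0.14, adjusted p = 6.4e-06), Fas (1.12 ± 0.16, adjusted p = 4.8e-05) and Tnfrsf21, and were lower for Tnfrsf12a (-0.88 ± 0.12, adjusted p = 4.0e-05). The fibroblast share of the epithelial libraries was 11.2% in IPFc and 28.2% in TGF-β, and the epithelial share of the fibroblast libraries 19.3% and 2.38%. Over all genes, subtraction left 2757 higher and 1980 lower in the epithelial libraries, against 3345 and 3368 as measured. In the fibroblast libraries it left 508 and 150, against 2179 and 962. After subtraction 6 of the 13 epithelial calls were kept (Tnfrsf11b, Cd40, Tnfrsf1b, Ltbr, Tnfrsf22 and Tnfrsf23), with 3 others gained. Of the 6 fibroblast calls, those of Tnfrsf9, Tnfrsf1b, Fas and Tnfrsf12a were kept, while Tnfrsf11a, whose mean level was at or below its carry-over value in both groups (1.45 of 1.64 and 0.119 of 0.163 CPM), and Tnfrsf21 lost theirs. The Tnfrsf21 difference was then -1.68 ± 1.69 (adjusted p = 0.92), in the opposite direction.

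The intracellular side of the pathway was read from a list of 40 adaptors, kinases, ubiquitin ligases and NF-κB genes, all of which were tested. EC raised 3 of them and lowered 1 in the epithelial libraries (1.96% and 2.44% of all genes): the inhibitor of apoptosis Birc3 (0.53 ± 0.13, adjusted p = 0.014), the NF-κB subunit gene Nfkb1 and the A20 partner Tnip1 rose, and Ikbkg fell. In the EC fibroblast libraries 1 rose (Traf4) and 4 fell (4.28% and 2.84% of all genes): Tnfaip3, which encodes the NF-κB inhibitor A20 (-1.16 ± 0.30, adjusted p = 0.029), Traf5, Traf1 (-0.81 ± 0.20, adjusted p = 0.020) and Map3k14. IPFc lowered only the necroptosis kinase Ripk3 in the epithelial libraries (-0.39 ± 0.09, adjusted p = 0.017; 1.53% of all genes fell) and gave no edgeR call in the fibroblast libraries, where 3 had an unadjusted p below 0.05 and DESeq2 called 0. Over all genes, 1174 of 18048 had an unadjusted p below 0.05 in that fibroblast comparison. Leaving out 1 mouse gave 1 to 6 calls in EC epithelial libraries (1 without mouse 1 or 3, 2 without mouse 2), 0 to 9 in EC fibroblast libraries (9 without mouse 1, 1 without mouse 2, 0 without mouse 3 or 4) and 0 without any mouse for the IPFc epithelial call. Over all genes, EC fibroblast calls were 1226 higher and 827 lower without mouse 1, 155 and 62 without mouse 3, and 174 and 59 without mouse 4.

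Under TGF-β more genes of the list were called, as were more of all genes. In the fibroblast libraries 3 genes rose and 11 fell, against 6.39% and 12.8% of all genes, and those that fell included genes that NF-κB is known to induce: Nfkbia (-2.19 ± 0.27, adjusted p = 1.2e-05), Traf1 (-1.99 ± 0.21, adjusted p = 1.3e-06), Tnfaip3 (-1.88 ± 0.30, adjusted p = 0.00019) and Birc3 (-1.66 ± 0.15, adjusted p = 3.1e-07). The genes that rose were Tradd, the TNF receptor adaptor, Traf4 and Map3k7. In the epithelial libraries 11 rose and 10 fell, against 21.0% and 20.1% of all genes. Traf5 (1.53 ± 0.39, adjusted p = 0.0031) and Tnfaip3 (1.42 ± 0.26, adjusted p = 0.00013) led the rise, and Ripk3 (-0.93 ± 0.11, adjusted p = 4.8e-07) led the fall. Tnfaip3 and Nfkbia therefore moved in opposite directions in the epithelial libraries, where Nfkbia fell by 0.39 ± 0.15 (adjusted p = 0.043). The fibroblast count was 7 without mouse 3 or 4, 9 without mouse 2 and 5 after subtraction, beside an epithelial share of 22.5% in vehicle and 2.38% in TGF-β. Over all genes, 590 rose and 1558 fell in this comparison without mouse 3, and 646 and 1579 without mouse 4.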

How the data were processed

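RNA of 15 epithelial and 15 fibroblast libraries was sequenced from stranded libraries on a NovaSeq. Per the labels, the authors trimmed reads with Trimmomatic 0.30, used GRCm39 (their methods name GRCm38 patch 6) and DESeq2 1.34.0, and deposited raw read counts per gene; the aligner, counter and strand setting are not given in the sources used here. The deposited counts hold no row without a gene name.

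Counts were tested as deposited with edgeR 4.0.16 in R 4.3.3: a filter at 1 raw read per library on average, TMM scaling, a quasi-likelihood test, Benjamini-Hochberg adjustment and the mouse as a block, in 1 fit of 4 treatments per fraction (18024 epithelial and 18048 fibroblast genes). Fractions and differences in response were contrasts of 1 fit of all 30 libraries (18364 genes). Its block was the mouse within each fraction, so the 2 fractions of a culture were not paired. DESeq2 1.42.0, RLE scaling, other filters, separate fits, no block, a term for title suffixes, subtraction of the carry-over value and leaving out each mouse were alternatives. The fits were also run on simulated counts with the same set spread for every gene, no mouse effect and no mixing of fractions. That run cannot speak for the spread, mouse effects or mixing in these data. Same-numbered libraries came from cultures of the same animal, and their deviations from the group means correlated with a median r of 0.277 (epithelial) and 0.293 (fibroblast), against -0.07 and -0.08 for other mice. No 2 libraries of a group agreed within sampling noise.

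The share of the other fraction used marker genes of at least 50 CPM in the partner library, or the group mean where the partner was missing. It was compared by an exact permutation test that did not pair the mice. Exon lengths and positions came from GENCODE vM39 for GRCm39, and promoters from RefSeq for GRCm38.p6. Read ratios and floors of 3 reads cover counting error only. The members and gene lists were chosen with earlier results of these data known. Named with values were Tnfrsf11b, Tnfrsf9, Tnf and its 2 receptors, called members of each comparison with vehicle (at most 8, by size), and the 4 with the largest difference between fractions in each direction; others named were chosen after their values were seen.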

Additional observations from a re-analysis of the deposited data

Results flagged for a closer look

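Of 112 groups of 4 libraries examined, 5 held a library far from the other 3, about what chance gives (1 in 20). In the epithelial IPFc group, mouse 3 had 11.8 CPM of Tnfrsf11b and the others 9.16 to 9.26 CPM. In the fibroblast IPFc group, mouse 1 had 30.1 CPM of Tnfrsf11b and the others 37.2 to 38.4 CPM. In the epithelial vehicle group, mouse 1 had 1.91 CPM of Tnfrsf19 and the others 0.886 to 1.04 CPM. In the fibroblast TGF-β group, mouse 4 had 0.660 CPM of Tnfrsf26 and the others 1.23 to 1.30 CPM. In the fibroblast EC group, mouse 4 had an epithelial share of 59.4% and the others 38.6 to 41.7%.

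A difference in response between the fractions (epithelial minus fibroblast log2 fold change) passed the test for 3 members under EC, 1 under IPFc and 11 under TGF-β. Under EC it was 3.04 for Tnfrsf11b, -1.55 for Tnfrsf11a and -1.10 for Tnfrsf21, and under IPFc 2.19 for Tnfrsf11b. Under TGF-β it was 4.57 for Tnfrsf11b, 2.88 ± 0.90 for Tnf (adjusted p = 0.015), 2.59 ± 0.56 for Tnfrsf11a (adjusted p = 0.00056), 2.51 for Tnfrsf9, 1.78 ± 0.45 for Tnfsf12 (adjusted p = 0.0037), 1.60 for Fas, 1.39 ± 0.46 for Tnfrsf14 (adjusted p = 0.023), -2.40 ± 0.83 for Tnfrsf18 (adjusted p = 0.030), -0.98 for Tnfrsf12a and -0.70 ± 0.16 for Tnfrsf10b (adjusted p = 0.0015). Cd40 passed with an adjusted p of 0.036, with 32 reads in the TGF-β epithelial libraries and 1 read in the fibroblast vehicle libraries, and its fold change was not estimable.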

How the results depend on the processing

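Without the replicate block, members called went from 6 to 3 in epithelial EC, 5 to 1 in fibroblast EC, 4 to 1 and 7 to 1 in EC against IPFc (epithelial and fibroblast), 13 to 7 in epithelial IPFc against TGF-β and 3 to 1 in the EC difference between fractions, and pathway calls from 4 to 2 and 1 to 0 in epithelial EC and IPFc, 5 to 0 in fibroblast EC and 14 to 8 in fibroblast TGF-β. With the other fraction subtracted, members called were 1 in epithelial EC, 1 in epithelial IPFc, 8 in epithelial TGF-β, 1 in fibroblast EC, 5 in fibroblast TGF-β, and 1 and 0 in EC against IPFc, and pathway calls were 2 and 0 in epithelial EC and IPFc, 0 in fibroblast EC and 5 in fibroblast TGF-β. DESeq2 called 10 members in epithelial EC and 1 in fibroblast IPFc, and 2 and 9 pathway genes in epithelial IPFc and fibroblast EC. With no filter there were 7 members in epithelial EC against IPFc and 2 in fibroblast IPFc. With separate fits there were 1 member in fibroblast IPFc, 2 in fibroblast EC against IPFc and 10 in fibroblast IPFc against TGF-β, and 3 pathway genes in epithelial IPFc, where edgeR's filterByExpr gave 2. The title suffix as a term gave 1 member and 2 pathway genes in fibroblast EC and 9 pathway genes in fibroblast TGF-β. Calls over all genes moved as well. In fibroblast EC, 772 genes rose and 512 fell in the main fit. Without the block 201 rose and 120 fell, without mouse 3 155 and 62, and after subtraction 28 and 8. In epithelial EC, 354 rose and 440 fell in the main fit, 184 and 207 without the block, and 141 and 210 after subtraction. DESeq2 called 456 higher and 564 lower in epithelial EC, and 118 and 65 in fibroblast IPFc. With no filter 42 epithelial members were tested, against 30 in the main fit. The causes were not tested.

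Leaving out 1 mouse gave 2 to 5 members in epithelial EC (3 without mouse 1, 2 without mouse 2), 2 in epithelial IPFc, 11 to 13 in epithelial TGF-β, 1 to 3 in epithelial EC against IPFc, 5 to 11 in epithelial IPFc against TGF-β, 1 to 7 in fibroblast EC (2 without mouse 2 or 4, 1 without mouse 3), 0 to 1 in fibroblast IPFc (1 without mouse 1), 6 to 10 in fibroblast TGF-β (6 without mouse 4), 1 to 6 in fibroblast EC against IPFc, 6 to 8 in fibroblast IPFc against TGF-β, 17 to 19 between fractions in vehicle, and 2 to 3, 1 and 8 to 12 for the differences in response. Pathway calls were 1 to 6, 0 and 16 to 20 in the epithelial and 0 to 9, 0 and 7 to 17 in the fibroblast comparisons (EC, IPFc and TGF-β). Over all genes, epithelial EC gave 206 higher and 215 lower without mouse 1, and 208 and 294 without mouse 2.

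Signs turned for changes near 0 or near the carry-over value. Tnfrsf1a in epithelial IPFc (-0.02) was -0.075 to 0.022 with 1 mouse left out (0.022 without mouse 3 and 0.0059 without mouse 4), and in fibroblast EC (-0.21) 0.0087 after subtraction. Tnfrsf9 in epithelial IPFc was -0.94, Tnfsf12 in epithelial TGF-β -0.63 and Tnfrsf11a in fibroblast TGF-β 0.37 after subtraction. Tnfrsf21 in fibroblast TGF-β, where it fell as measured, was then 6.54. In fibroblast IPFc against TGF-β, where IPFc was higher as measured, Tnfrsf21 was then -1.68. Tnf in fibroblast EC (0.10) was -0.17 with no replicate block, -0.89 (without mouse 3) to 0.96 with 1 mouse left out, -6.38 after subtraction and -0.55 with the suffix term. Tnfrsf1b in fibroblast IPFc (0.03) was -0.023 with no replicate block, -0.10 (without mouse 3) to 0.19 with 1 mouse left out and -0.15 with the suffix term. Each share difference kept its direction under a 20 CPM minimum, under an estimate from Xist and Y-linked genes (chosen after seeing the data) and without any 1 mouse. With Xist and Y-linked genes the epithelial differences from vehicle were 11.8 points in EC (5.26 with the marker genes) and 2.55 in IPFc (5.33), and the fibroblast EC difference was 15.7 (22.3). Members below about 1 CPM rest on few reads, and their changes were not detectable unless large.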

Other observations

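The share of RNA of the other fraction was also read, again as a ratio to the mixed partner, from Xist and 4 Y-linked genes. These genes are independent of the marker lists and were chosen after the data were seen. Xist stood for fibroblast RNA and the Y-linked genes for epithelial RNA. This reading takes the donor mice as male, while the study's methods name male and female mice. Fibroblast RNA in the epithelial libraries was then 7.41 ± 5.77% (SD, n = 4) in vehicle, 19.2 ± 18.7% in EC, 9.96 ± 3.66% in IPFc and 32.9 ± 7.12% (n = 3) in TGF-β. The EC mean rested largely on mouse 1, with 45.8%, against 18.6, 5.28 and 7.21% in mice 2, 3 and 4. Epithelial RNA in the fibroblast libraries was 20.9 ± 2.82% (n = 3) in vehicle, 36.6 ± 4.38% in EC, 16.9 ± 5.27% in IPFc and 1.27 ± 0.917% in TGF-β. The order of the treatments was the same as with the marker genes in the fibroblast libraries, and TGF-β had the highest mean in the epithelial libraries under both estimates.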
